A study of Mus musculus with 20 samples.

Results

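Expression of 7 genes of cholesterol synthesis was examined in mouse liver: Idi1, Fdps, Fdft1, Sqle, Lss and Cyp51, which encode enzymes of the pathway, and Srebf2, which encodes its transcriptional regulator SREBP-2. The genes were chosen by name, and each symbol matched 1 of the 25444 loci in the deposited tables. RNA was sequenced from the left lateral liver lobe of 20 untreated mice at 20 weeks of age, 5 females and 5 males of each of the inbred strains C57BL/6N (B6) and C3H/HeN (C3). The mice carried no engineered allele, were housed singly and received the same diets, and females and males were kept in separate rooms, so that sex and room cannot be told apart. Each group had 1 or 2 livers in each of 3 sequencing pools. The comparisons ask whether these genes differ between the sexes within a strain, and between the strains within a sex.

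Liver is a main site of cholesterol synthesis. Isoprenoid units made from mevalonate are interconverted by the isomerase Idi1 and joined by farnesyl diphosphate synthase (Fdps). Squalene synthase (Fdft1) then makes squalene, which squalene epoxidase (Sqle) oxidises, lanosterol synthase (Lss) closes into the first sterol, and lanosterol demethylase (Cyp51) carries on towards cholesterol. SREBP-2 is held in the endoplasmic reticulum by Scap and the Insig proteins when sterols are plentiful. When sterols are low, Scap escorts it to the Golgi, the proteases encoded by Mbtps1 and Mbtps2 release its active fragment, and that fragment activates genes of the pathway, largely through sterol regulatory elements.

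The 7 genes lie on 6 autosomes. In the mm9 build used by the authors, Idi1 is at chr13:8884852-8891642, Lss at chr10:75994350-76019884, Sqle at chr15:59146647-59162748 and Srebf2 at chr15:81977699-82035390, all on the plus strand. Fdps is at chr3:88897510-88905889, Fdft1 at chr14:63763988-63798415 and Cyp51 at chr5:4080674-4104697, all on the minus strand. Reads of both strains were aligned to this B6-derived reference, and any effect of that on counts in C3 livers was not tested.

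RefSeq promoter sequences (GRCm38.p6) were matched for 4 of the 7 genes, Idi1, Lss, Cyp51 and Srebf2. The 250 bases before each start site were searched on both strands for the closest match to the 10-letter consensus of the sterol regulatory element, and for CCAAT, the box bound by NF-Y, which often lies near it. The closest match in each gene is shown because the enzymes and Srebf2 are targets of SREBP-2. Capitals mark the match, and each window is written 5′ to 3′ on the strand of the gene.
Srebf2, chr15:82147096-82147125, plus strand: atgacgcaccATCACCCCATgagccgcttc
Cyp51, chr5:4104767-4104796, minus strand: ataggccgagATCACCTCAGcagcgcgtgg
Lss, chr10:76531548-76531577, plus strand: ccgagctcgcATCGGCCCACccagtagttc
Idi1, chr13:8885425-8885454, plus strand: ttccatcaagACCAACCCACaggaattcca

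The Srebf2 match differed from the element in 1 letter and began 163 bases before the start site. The matches in Cyp51, Lss and Idi1 differed in 2 letters and began 89, 47 and 171 bases before it. A match within 1 letter occurred in 1.65% of all 32851 promoters in the table and a match within 2 letters in 20.0%. All 4 promoters held a CCAAT box, which did not overlap the match shown, against 33.9% of all promoters. These letter matches are descriptions of sequence and not evidence of binding.

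The 20 libraries held between 27370921 and 46835745 counted read pairs, with depth set by pool, and 13704 genes passed the filter on low counts. All 7 genes passed it, with at least 651 counts of Srebf2 and at least 1460 counts of each enzyme in every liver. The sex labels were borne out by Xist, at 381 CPM (counts scaled to the size of the library) or more in each female and 0.348 or less in each male. The tissue was borne out by hepatocyte markers (Alb, Ttr, Apoa1 and Serpina1a), whose summed level was 66400 CPM or more in every liver. These are bulk measurements, in which fewer cells of a type and less RNA per cell cannot be told apart.

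Per transcript length (TPM), the median level over 20 livers ran from 401 for Fdps through 126 for Cyp51, 97.6 for Fdft1, 81.9 for Sqle, 57.0 for Idi1 and 30.3 for Lss to 14.3 for Srebf2. Fdps exceeded Cyp51 in 20 of 20 livers and Idi1 exceeded Lss in 20 of 20. Cyp51 exceeded Fdft1 in 17 livers, Fdft1 exceeded Sqle in 18, Sqle exceeded Idi1 in 19 and Lss exceeded Srebf2 in 19. The ranges of Cyp51 and Fdft1, of Fdft1 and Sqle, and of Sqle and Idi1 did not overlap in 1 group each and overlapped in the other 3. These neighbours were thus not well separated by range, although their order held within most livers.

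None of the 6 enzymes, and not Srebf2, met the threshold for a difference in any comparison (edgeR quasi-likelihood test, adjusted p under 0.001 and an absolute log2 fold change over 0.5). The count was 0 of 7 between females and males in B6, where 6.34% of all genes tested were called, and 0 of 7 in C3, where 6.9% were. It was 0 of 7 between C3 and B6 females and 0 of 7 between C3 and B6 males, against 9.4% and 9.64% of all genes. For the sex-by-strain interaction it was 0 of 7, against 0.401%. What the genes did show was a small sex difference in Srebf2, short of the threshold, and a wide spread of the enzymes among B6 females. Ratios of Sqle to Cyp51 and to Idi1 did not overlap between the strains.

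Srebf2 was higher in females of both strains by a small margin. In B6 females its levels were 29.5, 30.3, 33.5, 36.5 and 36.6 CPM, and in B6 males 26.3, 26.7, 26.9, 30.8 and 32.1 CPM. In C3 females they were 32.2, 35.0, 35.1, 36.3 and 38.1 CPM, and in C3 males 24.9, 25.2, 26.8, 28.7 and 32.9 CPM. The sexes thus overlapped in both strains, in C3 only because the highest male passed the lowest female. The log2 fold change of females over males was 0.22 in B6 (SE 0.08, adjusted p = 0.0444, edgeR) and 0.35 in C3 (SE 0.08, adjusted p = 0.00354, edgeR).

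At an adjusted p under 0.05 without a limit on the fold change, Srebf2 was thus 1 of 7 genes that differed by sex in each strain. In this wider sense 34.6% of all genes differed in B6 and 40% in C3. Within pools 1, 2 and 3 the log2 difference was 0.33, -0.12 and 0.28 in B6, and 0.44, 0.33 and 0.29 in C3. The B6 difference missed an adjusted p of 0.05 without a pool term (0.22, adjusted p = 0.127, edgeR) and without B6 female replicate 4 (0.17, adjusted p = 0.139, edgeR). The sex difference of Srebf2 was not shown to differ between the strains (interaction 0.13, SE 0.12, adjusted p = 0.655, edgeR).

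Markers of Kupffer, endothelial and stellate cells moved with sex in the same direction. All 4 Kupffer cell markers (Clec4f, Cd5l, Vsig4 and Adgre1) and all 4 endothelial markers (Stab2, Clec4g, Kdr and Pecam1) were higher in females of both strains at an adjusted p under 0.05. The summed Kupffer markers ranged from 314 to 406 CPM in B6 females against 200.4 to 317 in B6 males, and from 221 to 332 in C3 females against 151 to 227 in C3 males. The summed endothelial markers ranged from 324 to 403 CPM in B6 females against 267 to 314 in B6 males, and from 312 to 396 in C3 females against 283 to 345 in C3 males. The summed stellate cell markers (Dcn, Lrat, Reln and Col1a1) did not overlap between the sexes, at 446 to 558 CPM in B6 females against 363 to 426 in B6 males, and 373 to 411 in C3 females against 311 to 363 in C3 males. By the test, 2 of 4 stellate markers were higher in females of each strain. At an adjusted p under 0.05, 34.6% of all genes differed between the sexes in B6 and 40% in C3. Summed cholangiocyte markers (Krt19, Krt7, Epcam and Sox9) leaned the other way. They ranged from 3.38 to 4.77 CPM in B6 females against 4.56 to 8.69 in B6 males. In C3 they ranged from 3.72 to 6.10 CPM in females against 4.89 to 7.89 in males. Sox9 was lower in females, at a mean of 1.43 against 3.85 CPM in B6 and 2.51 against 4.78 CPM in C3. Of the 4 estimates, 3 were above 0 in each strain. No Kupffer or endothelial marker was at 0, and the part of these lists in the Srebf2 difference was not tested. Srebf2 did not differ between strains within error (log2 fold change 0.08, 95% CI -0.09 to 0.26 in females, and -0.05, 95% CI -0.22 to 0.13 in males).

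**Figure D1:**
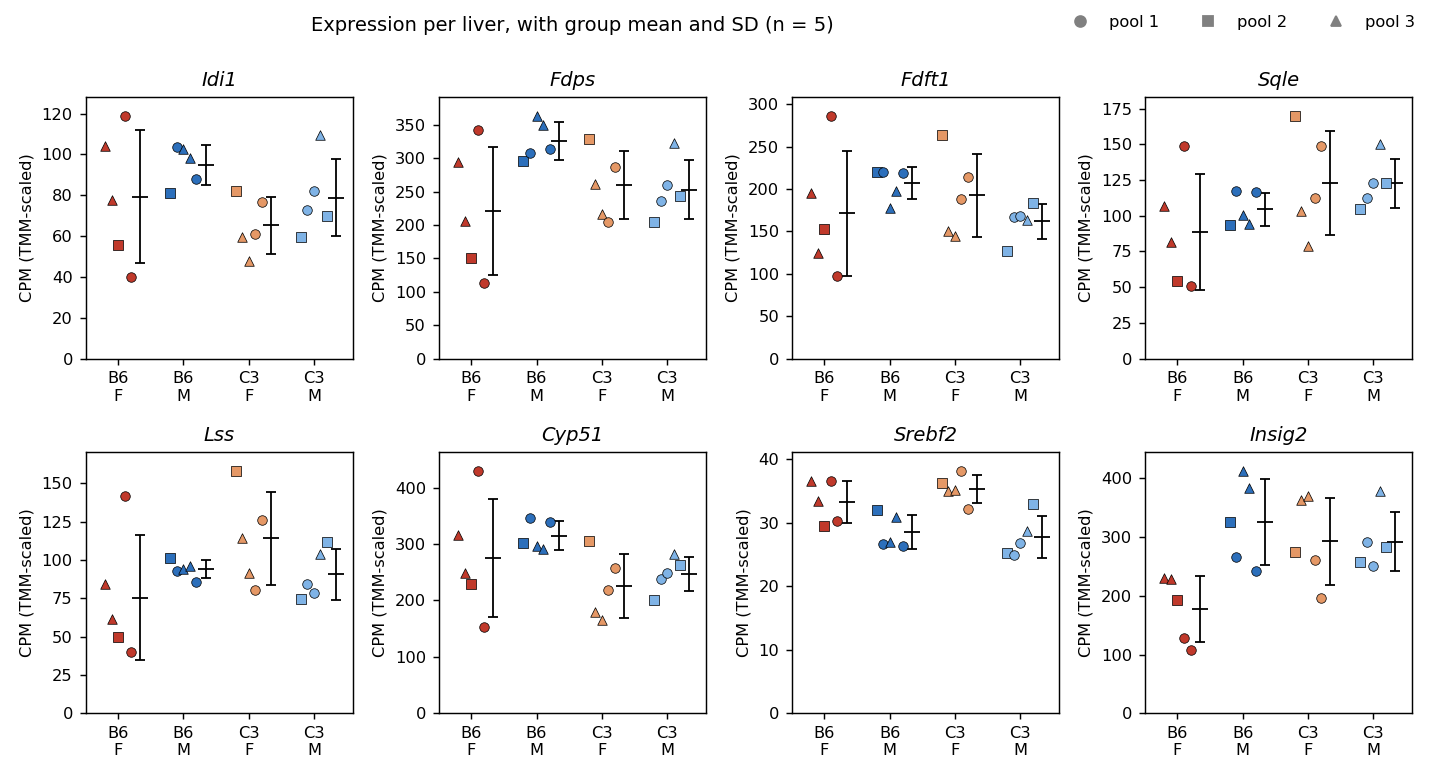
Expression of the 7 genes and Insig2 in each liver (y axis, TMM-scaled CPM from 0; x axis, the 4 groups; F, female; M, male). Each point is 1 liver, its shape gives the sequencing pool, and the bar beside each group is the mean and SD of 5 livers. The 6 enzymes spread from 2.79-fold to 3.56-fold among B6 females and lie close together in B6 males, whereas Srebf2 is even in all groups and Insig2 is lowest in B6 females.

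The estimates of all 6 enzymes were lower in B6 females than in B6 males, but none passed the test. Fdps was at 113, 151, 206, 295 and 342 CPM in B6 females and at 296, 308, 314, 349.8 and 363 CPM in B6 males. The females reached lower than any male, but the highest lay among the males. The log2 fold change of -0.56 (SE 0.22, adjusted p = 0.0536, edgeR) was the nearest to the wider threshold of the 6 enzymes, and its values within pools were -0.66, -0.97 and -0.53.

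Idi1 was at 40.0, 55.8, 77.7, 104 and 119 CPM in B6 females and at 81.0, 88.1, 98.3, 103 and 103 CPM in B6 males. Fdft1 was at 97.5, 125, 152, 196 and 286 CPM in B6 females and at 178, 197, 219, 219.8 and 220.1 CPM in B6 males. In both genes the female range enclosed the whole male range, as it also did for Sqle, Lss and Cyp51. The log2 fold change of these 5 enzymes lay between -0.31 (Lss, 95% CI -0.86 to 0.23) and -0.19 (Cyp51, 95% CI -0.61 to 0.23), so that neither no difference nor a difference above the fold limit can be set aside at this spread.

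In C3 the estimates had both signs. Fdps was at 205, 217, 261, 287 and 329.6 CPM in C3 females and at 204, 236, 243, 259.7 and 323 CPM in C3 males, a log2 fold change of 0.01 (95% CI -0.45 to 0.47). Idi1 was at 47.6, 59.5, 61.0, 76.5 and 82.3 CPM in C3 females and at 59.7, 69.8, 72.8, 82.3 and 109 CPM in C3 males. The log2 fold change over the 6 enzymes ran from -0.29 for Idi1 (adjusted p = 0.321, edgeR) to 0.34 for Lss (adjusted p = 0.309, edgeR), and the sexes overlapped in all 6. Between the sexes, 10.9% of all genes did not overlap in B6 and 13.1% in C3.

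Between strains, Lss, which makes the first sterol of the pathway, was the enzyme with the largest estimate. Its levels in B6 females were 39.8, 50.0, 61.4, 84.6 and 142 CPM, and in C3 females 80.6, 91.6, 114, 126 and 158 CPM. Only B6 female replicate 4, at 142 CPM, stood among the higher C3 livers. The log2 fold change of C3 over B6 females was 0.59 (SE 0.26, adjusted p = 0.0950, edgeR). In males Lss was at 85.8 to 101 CPM in B6 and 74.3 to 112 CPM in C3, with no lean to either strain (-0.07, 95% CI -0.62 to 0.48).

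Sqle, the epoxidase that makes the substrate of Lss, was at 51.1, 54.3, 81.7, 107 and 149 CPM in B6 females and at 78.8, 104, 113, 149 and 169.9 CPM in C3 females. The groups overlapped over most of their range, and the log2 fold change was 0.48 (SE 0.24, adjusted p = 0.147, edgeR). Cyp51 had the opposite sign, at 154, 228, 248, 316 and 429 CPM in B6 females and at 165, 180.3, 218, 258 and 305 CPM in C3 females (-0.30, SE 0.20, adjusted p = 0.284, edgeR). At an adjusted p under 0.05 without a limit on the fold change, 0 of 7 genes differed between C3 and B6 females, where 32.9% of all genes did, and 0 of 7 in males, where 34.5% did.

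The Lss estimate turned on a single liver. Without B6 female replicate 4, Lss was called between C3 and B6 females (log2 fold change 1.01, SE 0.19, adjusted p = 0.00045, edgeR), 1 of 7 genes, where 9.25% of all genes were called. In the same fit Sqle was at 0.75 (adjusted p = 0.0174, edgeR) and Fdps at 0.54 (adjusted p = 0.0391, edgeR). Between B6 females and males, 0 of 7 genes were called without it, where 5.38% of all genes were, with Fdps at -0.85 (adjusted p = 0.00293, edgeR) and Lss at -0.73 (adjusted p = 0.00668, edgeR). The Lss interaction rose from 0.65 (adjusted p = 0.407, edgeR) to 1.07 (adjusted p = 0.0210, edgeR).

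Leaving out B6 female replicate 5, the lowest liver, moved the estimates the other way. Fdps between B6 females and males was then at -0.40 (adjusted p = 0.112, edgeR), Cyp51 at -0.02, and Lss between C3 and B6 females at 0.43 (adjusted p = 0.204, edgeR). Cyp51 between C3 and B6 females was at -0.47 (adjusted p = 0.0390, edgeR) in that fit.

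In males, the strain comparison held tighter values. Cyp51 was at 201, 238, 248, 263 and 282 CPM in C3 males and at 292, 296, 303, 339 and 345 CPM in B6 males. Every C3 male was below every B6 male, with a log2 fold change of -0.37 (SE 0.21, adjusted p = 0.178, edgeR). Cyp51 was the only 1 of 7 genes whose groups did not overlap in males, where 15.1% of all genes did not, and 0 of 7 did not overlap in females, where 12.8% did not.

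Fdft1 was at 127, 163, 167, 169 and 184 CPM in C3 males, and all but the highest of them were below the B6 males. Its log2 fold change was -0.39 (SE 0.21, adjusted p = 0.157, edgeR), and that of Fdps was -0.32 (SE 0.22, adjusted p = 0.274, edgeR). When only the 10 males were fitted, so that the spread of the B6 females did not enter, Fdps (-0.31, adjusted p = 0.00525, edgeR), Fdft1 (-0.38, adjusted p = 0.0116, edgeR) and Cyp51 (-0.35, adjusted p = 0.0126, edgeR) had an adjusted p under 0.05. The share of all genes under 0.05 in that fit was not counted, so these 3 genes cannot be called unusual. With all livers fitted, 34.5% of all genes had an adjusted p under 0.05 between the males of the strains. Fits of only the groups compared are not given at this threshold for the other comparisons. The differences of Fdps, Fdft1 and Cyp51 stayed under the fold limit in the fit of the males. Sqle pointed the other way, at 104, 112, 123, 123 and 150.4 CPM in C3 males against 93.4, 94.0, 101, 117 and 117 CPM in B6 males (log2 fold change 0.25, SE 0.24, adjusted p = 0.461, edgeR).

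**Figure D2:**
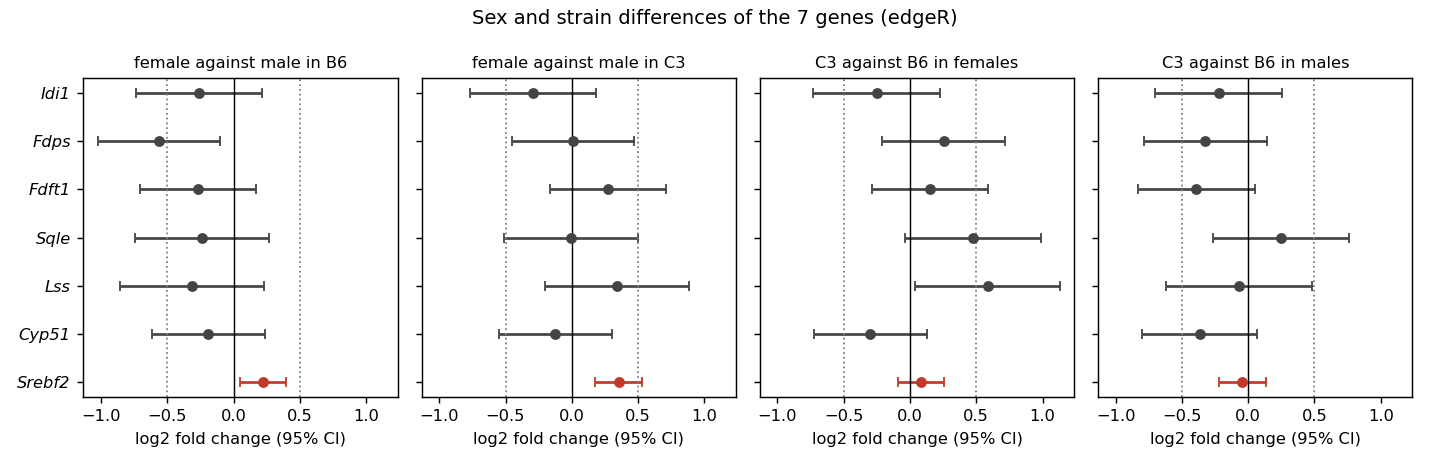
Log2 fold changes of the 7 genes in the 4 comparisons (x axis, group named first over group named second; points, edgeR estimates; bars, 95% confidence intervals; dotted lines, the fold limit of 0.5 in each direction; red, Srebf2). The intervals of the enzymes are wide, from Fdps at -0.56 between B6 females and males to Lss at 0.59 between C3 and B6 females, and the narrow intervals of Srebf2 lie above 0 in both sex comparisons.

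Ratios of Sqle to Cyp51 and to Idi1 within a liver were higher in C3 than in B6 livers of both sexes. This comparison was added after the data were seen. All 15 pairs of the 6 enzymes were compared in the 4 comparisons, with a two-sided exact permutation test over 5 livers against 5 (smallest possible p = 0.00794) and adjustment over the 60 tests. Scaling by library size cancels in such a ratio, and pairs that share an enzyme are not independent.

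The pairs that separated the strains in both sexes were Sqle over Idi1 and Sqle over Cyp51. The share of all gene pairs that do so in both sexes was not counted, so these pairs cannot be called unusual. The ratio of Sqle to Cyp51 (CPM over CPM) was 0.238, 0.329, 0.332, 0.338 and 0.346 in B6 females and 0.309, 0.322, 0.340, 0.340 and 0.344 in B6 males. It was 0.478, 0.515, 0.558, 0.575 and 0.576 in C3 females and 0.469, 0.473, 0.496, 0.520 and 0.533 in C3 males. All 10 C3 livers therefore lay above all 10 B6 livers. The log2 difference of C3 from B6 was 0.78 in females and 0.59 in males (exact permutation p = 0.00794 and adjusted p = 0.0366 for each). It was positive within every pool, at 0.68, 1.23 and 0.65 in females and 0.50, 0.68 and 0.69 in males, and with each liver left out in turn (0.68 to 0.82 and 0.56 to 0.61).

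The ratio of Sqle to Idi1 was 0.973, 1.03, 1.05, 1.25 and 1.28 in B6 females and 0.956, 0.981, 1.14, 1.15 and 1.33 in B6 males. It was 1.66, 1.74, 1.84, 1.94 and 2.07 in C3 females and 1.37 to 1.77 with a median of 1.54 in C3 males. The strains again did not overlap in either sex. The log2 difference was 0.73 in females and 0.52 in males (exact permutation p = 0.00794 and adjusted p = 0.0366 for each).

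In total 7 of 15 pairs differed between C3 and B6 females and 4 of 15 between C3 and B6 males at an adjusted p under 0.05 (exact permutation tests), and none of these overlapped. Among all 89492131 pairs of the 13379 tested genes without a count of 0, 13.6% did not overlap between the females of the strains and 15.9% between the males. These pairs were not matched to the enzymes, which varied together across livers (r from 0.868 to 0.981, group and pool removed). The shares therefore cannot show that the enzyme pairs are unusual. Lss over Cyp51 had the largest log2 difference in females, 0.95 (adjusted p = 0.0366, exact permutation test). In males that pair was at 0.29 (adjusted p = 0.0828, exact permutation test). The other pairs that differed in females were Lss over Idi1, Fdft1 over Cyp51, Fdps over Cyp51 and Fdps over Idi1, and in males Sqle over Fdft1 and Sqle over Fdps.

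The calls depended on single B6 females. Without B6 female replicate 1, 2 or 5 no pair had an adjusted p under 0.05 in any comparison (smallest adjusted p 0.0560, 0.0595 and 0.0529, exact permutation tests). As leaving out a liver cannot make groups overlap, 7 pairs remained without overlap between females and 4 between males. In 4 against 5 livers a pair without overlap had an exact permutation p of 0.00794 or 0.0159, and 8, 8 and 9 of the 60 tests then had the smaller one, against 13 with all livers and 10 or more without any other liver. Without each of the other 17 livers the count was 5 to 8 in females and 3 to 4 in males. Between the sexes, where 11.2% of all gene pairs did not overlap in B6 and 13.8% in C3, 1 of 15 enzyme pairs differed in each strain, Fdps over Idi1 in B6 (-0.31) and Fdft1 over Cyp51 in C3 (0.38), both with adjusted p = 0.0366 in exact permutation tests. The first was lost without any 1 of the B6 females, and the second rose to 3 pairs without C3 female replicate 4 or C3 male replicate 5. These tests hold no pool term. With pool means removed, 4 of 15 pairs differed between the sexes in B6, 9 in C3, 11 between the females of the strains and 8 between the males, so all 4 counts depended on the treatment of pool.

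Markers of other cells also differed between the strains. At an adjusted p under 0.05, 32.9% of all genes differed between the females of the strains and 34.5% between the males. At this threshold 3 of 4 Kupffer cell markers were lower in C3 in each sex, as were 3 of 4 stellate cell markers in females and 4 of 4 in males. The hepatocyte markers were higher in 2 of 4 in each sex, with a summed level of 84659 to 118056 CPM in B6 females against 123618 to 154401 in C3 females. All 4 pericentral hepatocyte markers (Glul, Cyp2e1, Oat and Cyp1a2) were lower in C3 females than B6 females and 2 of 4 in males, with a summed level of 6246 to 8504 CPM in C3 females against 10057 to 13925 in B6 females. The part of cell composition or zonation in the ratios was not tested.

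**Figure D3:**
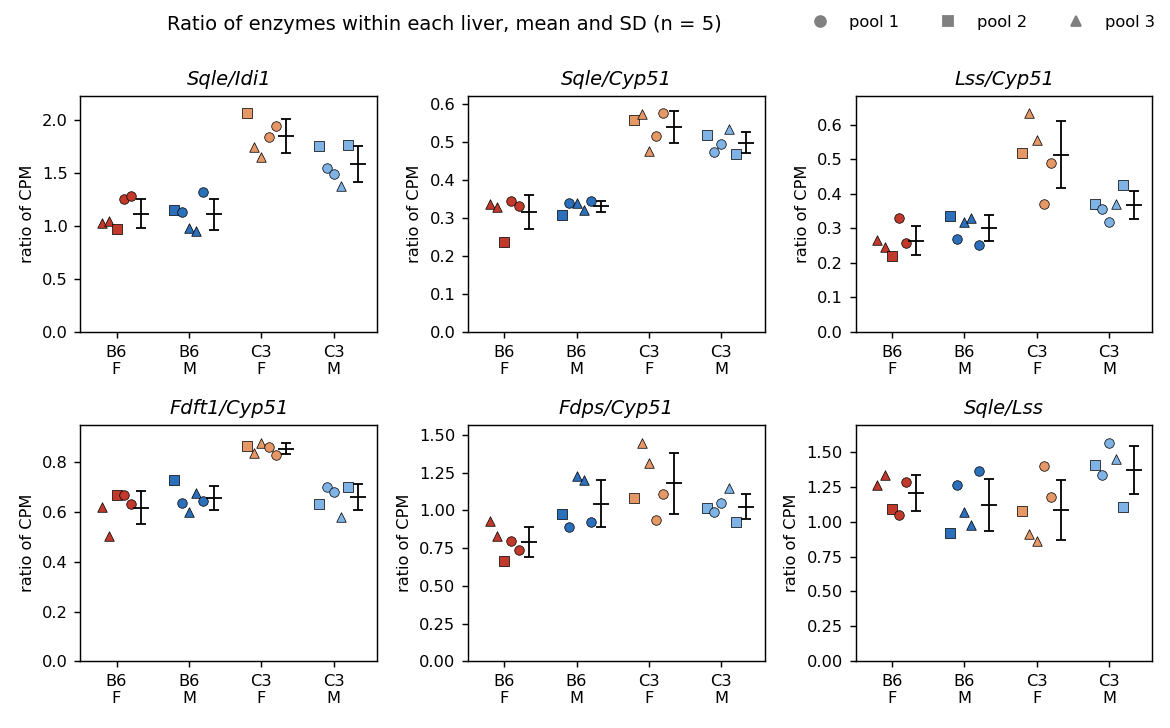
Ratios of the CPM of 2 enzymes within each liver for 6 of the 15 pairs (y axis, ratio from 0; x axis, the 4 groups; points, livers, with shape giving the pool; bars, mean and SD of 5 livers). Sqle over Idi1 and Sqle over Cyp51 are higher in all 10 C3 livers than in all 10 B6 livers, Lss, Fdft1 and Fdps over Cyp51 separate the strains in females, and Sqle over Lss separates neither.

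The second feature of these genes was their spread among livers of a group. In B6 females the coefficient of variation (CV) of the 6 enzymes ran from 37.7% for Cyp51 to 53.8% for Lss, and the highest liver exceeded the lowest by 2.79-fold to 3.56-fold. In B6 males it was 6.00% to 11.4%, in C3 females 19.7% to 29.7% and in C3 males 12.3% to 24.0%. Counting error alone gives a CV of at most 2.62%. The median CV of all genes was similar in the 4 groups, at 17.7%, 18.3%, 17.8% and 15.9% in the same order.

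The same livers were high or low in each enzyme. Replicate 4 was the highest and replicate 5 the lowest B6 female for 6 of 6 enzymes, and both were sequenced in pool 1. Replicate 1 was the highest C3 female for 6 of 6, and replicate 1 was the lowest C3 male for 6 of 6. In B6 males no liver was highest or lowest for more than 3 of the 6. Srebf2 did not share this spread, with a CV of 6.19% to 11.9% over the 4 groups.

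Between B6 female replicates 4 and 5 the ratio was 3.56 for Lss, 3.02 for Fdps, 2.97 for Idi1, 2.93 for Fdft1, 2.91 for Sqle and 2.79 for Cyp51, against 1.20 for Srebf2, which stood well below them. These livers were picked as the highest and lowest for the enzymes, so that large ratios of the enzymes between them follow from the choice. By CV in all 5 B6 females, which uses no such choice of livers, each enzyme spread more than 88.7% to 96.4% of the genes tested. The ratio exceeded 2 for 7 of the 13 other pathway enzymes counted and for 1 of the 6 SREBP processing genes. It lay between 0.962 and 1.36 for the 4 hepatocyte markers, between 0.818 and 0.884 for the 4 Kupffer markers, between 0.931 and 1.13 for the 4 endothelial markers and between 0.337 and 1.66 for the 10 clock genes. Some genes differed in the other direction, with Dbp at 0.337, Per1 at 0.420 and Per3 at 0.505 among the clock genes and Oat at 0.448 among the pericentral markers. The lymphocyte marker Cd3e was at 0.284, on levels of 0.108 and 0.381 CPM. Among 4 stellate cell markers it lay between 1.09 and 2.25, and only Col1a1, at 3.06 against 1.36 CPM, was above 2.

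**Figure D4:**
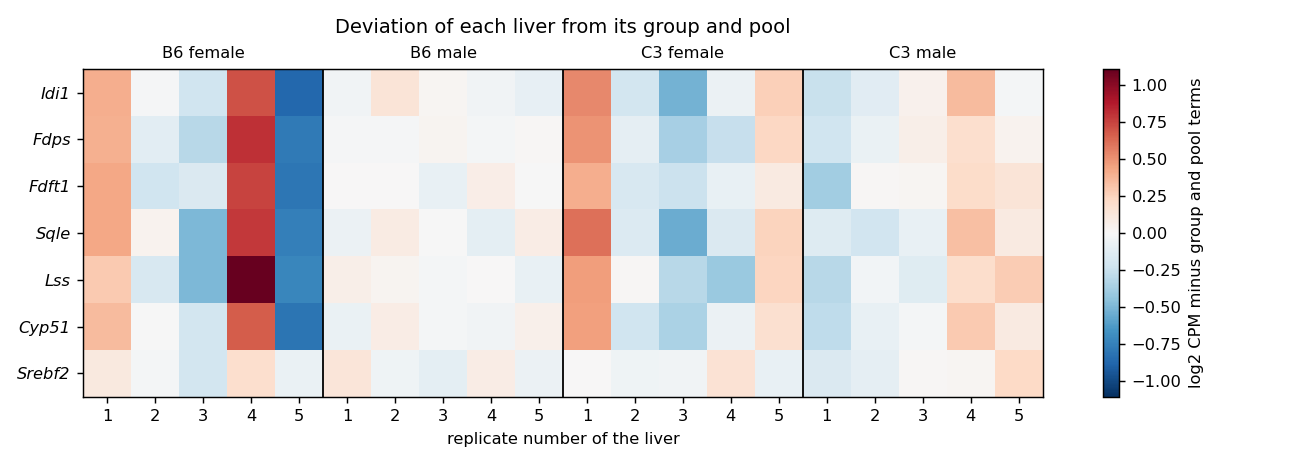
Deviation of each liver in log2 CPM after group and pool terms were removed (rows, genes; columns, the 20 livers by replicate number within each group; red, above; blue, below). The 6 enzymes change together down each column, most in B6 female replicates 4 and 5 and in C3 female replicate 1, and Srebf2 in the bottom row deviates less.

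After removal of group and pool, the 15 enzyme pairs had Pearson correlations from 0.868 to 0.981 over 20 livers, with a median of 0.956 (Spearman 0.803 to 0.961). Without B6 female replicates 4 and 5 they ran from 0.774 to 0.962 with a median of 0.899, and over the 15 livers of the other 3 groups from 0.759 to 0.953 with a median of 0.882. The points share their library and its scaling, so these values are given as a description. For all other genes, the correlation with the mean of the 7 genes had a median of 0.00.

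Srebf2 followed the enzymes more loosely. Pearson correlations with the 6 enzymes over 20 livers ran from 0.427 for Idi1 to 0.561 for Fdft1, and Spearman correlations from 0.414 for Fdps to 0.552 for Fdft1. Of 6 tests, Fdft1 (r = 0.56, permutation p = 0.00884) and Lss (r = 0.53, permutation p = 0.0145) had an adjusted p of 0.0435, and the other 4 had adjusted p values from 0.0557 to 0.0598 (two-sided permutation tests). By rank, all 6 adjusted p values lay between 0.0575 and 0.0713 (two-sided permutation tests). All these tests treated the 20 livers as exchangeable after group and pool were removed. They made no allowance for the terms removed, so their p values may be too small and the calls of Fdft1 and Lss are uncertain. Without C3 male replicate 5 and B6 female replicate 4, the livers farthest from the median of Srebf2, r ran from 0.311 to 0.440, so that the relation rested in part on them.

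The other genes of the pathway varied with the 7. Of the 10 genes most like the mean of the 7 over the 20 livers, with group and pool removed, 7 were other enzymes of the pathway: Msmo1 (r = 0.963), Dhcr7 (0.932), Nsdhl (0.929), Hsd17b7 (0.923), Acat2 (0.921), Pmvk (0.917) and Mvk (0.892). Acat2, Pmvk and Mvk act before squalene, and the others act on sterols. Msmo1 was at 232 ± 90.5 CPM in B6 females and 335 ± 27.0 CPM in B6 males (SD, n = 5 each), with replicate 4 highest and replicate 5 lowest among the B6 females.

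The remaining 3 of the 10 were Mmab (r = 0.935), a mitochondrial enzyme of cobalamin metabolism, Rdh11 (0.924), a retinol dehydrogenase, and Slc25a1 (0.878), the mitochondrial citrate carrier. Mvk and Mmab are neighbours on opposite strands of chromosome 5, and 259 of the 300 bases of their RefSeq promoter windows are the same stretch. Among the 13 pathway enzymes counted, Lbr (r = 0.412) and Ebp (0.586) were the least like the 7.

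**Figure D5:**
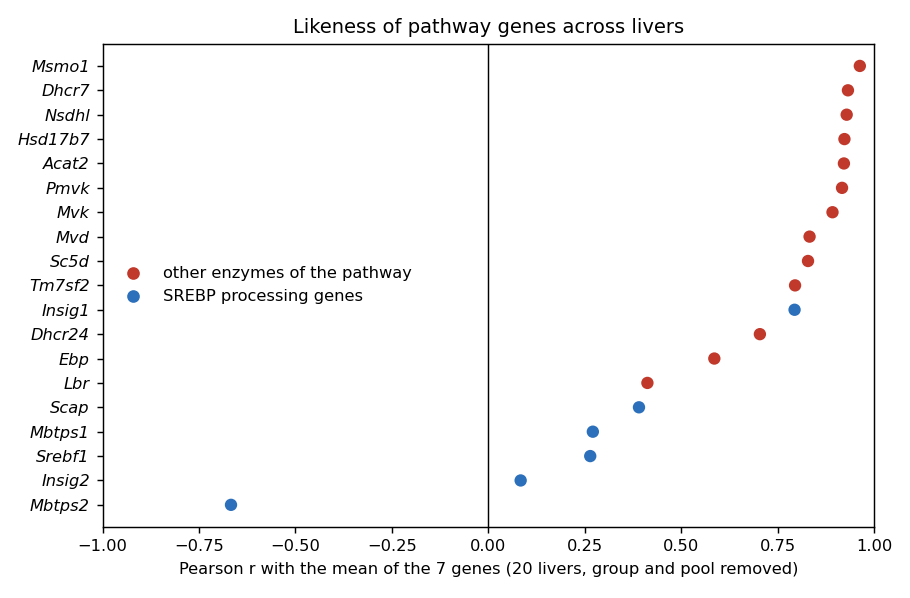
Pearson correlation of 13 other pathway enzymes (red) and 6 SREBP processing genes (blue) with the mean of the 7 genes over 20 livers, after group and pool were removed (x axis, r; rows, genes). Most enzymes lie above 0.7, Insig1 at 0.79 is the highest of the processing genes, and Insig2 lies near 0.

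Summed lists of cell markers followed the mean of the 7 genes less closely than the pathway did (r over 20 livers, group and pool removed). The values were 0.25 for hepatocyte, -0.37 for Kupffer cell, -0.12 for endothelial, 0.48 for stellate cell and 0.09 for cholangiocyte markers. They were -0.11 for periportal and -0.39 for pericentral hepatocyte markers, -0.04 for 10 clock genes and 0.37 for log2 total count. Tissue was collected within a single morning window, and the order in which livers were taken is not given in the sources used here.

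None of the 13 other pathway enzymes that could be counted was called in any comparison. Without B6 female replicate 4, Dhcr7 was called between C3 and B6 females (0.77, adjusted p = 0.00023, edgeR) and lower in B6 females than males (-0.69, adjusted p = 0.000873, edgeR), and Pmvk between C3 and B6 females (0.93, adjusted p = 0.00038, edgeR). In that fit 9.25% of all genes were called between C3 and B6 females and 5.38% between the sexes in B6. With all livers and an adjusted p under 0.05, Acat2 (-0.49) and Dhcr7 (-0.46) were lower in B6 females than males, and Sc5d was higher in C3 females than males (0.42). Pmvk (0.59), Dhcr7 (0.54) and Tm7sf2 (0.34) were higher in C3 than B6 females in this sense. No enzyme of the 13 passed between males of the strains. That threshold was passed by 34.6% of all genes for sex among B6 livers and by 40% for sex among C3 livers. For strain, 32.9% of all genes passed it among females and 34.5% among males. The median log2 fold change of the 13 was -0.21 between the sexes in B6, 0.05 between the sexes in C3, 0.26 between C3 and B6 females and -0.05 between C3 and B6 males, against 0.00, 0.01, 0.02 and 0.01 over all genes.

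Hmgcs1, which encodes the synthase that makes HMG-CoA, is listed only as 2 near-identical copies on an unplaced part of chromosome 13, where pairs that map to both copies were not counted. B6 livers had at most 3 counts of either copy, whereas C3 livers had 35 to 205 counts of one and 148 to 1116 of the other. Against a floor of 3 counts in each library, the copy with more counts was at least 254-fold higher in C3 than B6 females and at least 150.3-fold higher in males. These counts cannot be read as the level of the gene, since most of its reads may lie in pairs that were not counted, and they are given as uncertain.

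Among the SREBP processing genes, Insig2, which encodes an endoplasmic reticulum protein that retains Scap, was the 1 of 6 called. The calls were between the sexes in B6, where 6.34% of all genes were called, and between C3 and B6 females, where 9.4% were. Insig2 was at 108, 128, 193, 228 and 229.9 CPM in B6 females and at 242, 265, 325, 383 and 412 CPM in B6 males. These did not overlap, as was so for 10.9% of all genes. In C3 it was at 195, 260.2, 273, 363 and 369 CPM in females and at 251, 257, 282, 291 and 377 CPM in males, which overlapped. The log2 fold change of females over males was -0.90 in B6 (SE 0.10, adjusted p = 1.96e-06, edgeR) and -0.10 in C3 (SE 0.10, adjusted p = 0.429, edgeR).

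Insig2 was also higher in C3 than B6 females (0.74, SE 0.10, adjusted p = 1.22e-05, edgeR), where 4 of 5 C3 livers lay above every B6 liver. Within pools 1, 2 and 3 the sex difference in B6 was -1.11, -0.75 and -0.80, and the strain difference in females was 0.94, 0.51 and 0.68. Without the pool term both were near the same size but not called (-0.88, adjusted p = 0.00949, and 0.72, adjusted p = 0.0254, edgeR). Across livers Insig2 did not follow the 7 genes (r = 0.08), whereas Insig1, itself a known target of SREBP-2, did (r = 0.79) and was not called in any comparison.

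Scap, the SREBP escort protein, was higher in C3 than B6 in both sexes, just under the fold limit (females 0.45, adjusted p = 0.000354, and males 0.47, adjusted p = 0.000309, edgeR). Its levels did not overlap between the strains in either sex, as was so for 12.8% of all genes in females and 15.1% in males. The proteases Mbtps1 (0.21 and 0.19) and Mbtps2 (0.34 and 0.21) were higher in C3 females and C3 males at an adjusted p under 0.05. Srebf1, which encodes the related factor SREBP-1, was higher in C3 than B6 females in this sense (0.59, adjusted p = 0.0300, edgeR). Of all genes, 32.9% passed an adjusted p of 0.05 between the females of the strains and 34.5% between the males. At that threshold 0 of 7 cholesterol synthesis genes showed a sex-by-strain interaction, where 2.96% of all genes did.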

How the data were processed

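Libraries were made by the authors from total RNA depleted of ribosomal RNA with a stranded kit and sequenced as read pairs. Per the labels and methods, the tools were cutadapt 1.9.1, STAR 2.5.1b on mm9 and featureCounts of Subread 1.5.0-p1 on RefSeq genes with strand, and pairs with an average base quality of at least 20 were kept. The authors deposited raw counts per gene, without pairs that mapped to several places or several genes, and TPM values made from them, whose gene length is not defined in the sources used here. The headers of the symbol and identifier columns are exchanged, and both were read by content. Total counts per library, 27370921 to 46835745, limit precision, and such limits cover counting error only.

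Groups, sex, strain and pool were taken from the labels. Counts were fitted in R 4.3.3 with edgeR 4.0.16 (TMM, filterByExpr, quasi-likelihood) with group and pool over all 20 livers, and adjusted by the Benjamini-Hochberg method over 13704 genes. The authors' own test was DESeq2 with the same terms and thresholds, and DESeq2 1.42.0 and limma 3.58.1 on log2(TPM + 1) or log2(TPM + 0.1) were run as alternatives. CPM per liver is TMM-scaled. Correlations were taken on log2 CPM (prior count 2), with 100000 resamples. Replicates were separate animals. On simulated counts of 13704 genes for females against males in B6, 157 of 200 genes changed by a log2 value of 1 were called, with 1 false call among the unchanged genes. The simulation gave each gene the same dispersion in all groups and no pool effect. It therefore does not describe the power for the enzymes, whose spread differed between groups.

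The 7 genes and all lists were chosen with earlier results of these data known. Named were the 7 genes, genes of the 2 pathway lists called in a comparison of 2 groups, and the 10 other genes most like the mean of the 7; pathway genes passing only the wider threshold, the least alike and Insig1 were named after their values were seen. The enzyme ratios were added after the data were seen. Some genes of the pathway and 1 list of cell markers are not reported here.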

Additional observations from a re-analysis of the deposited data

Results flagged for a closer look

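The sex difference of Insig2 differed between the strains. The interaction was 0.80 on the log2 scale (SE 0.14, adjusted p = 0.00312, edgeR), with females lower than males by a log2 fold change of -0.90 in B6 and -0.10 in C3. It was under an adjusted p of 0.05 but not under 0.001, and DESeq2 gave an adjusted p of 2.30e-05 for the same term. With each liver left out in turn it lay between 0.72 and 0.89, with adjusted p values from 0.00118 to 0.0107 (edgeR). Without a pool term it was as large, 0.88, with an adjusted p of 0.324 (edgeR). No liver stood apart from its group by Dixon's criterion in any of the 32 groups tested, those of the 7 genes and Insig2.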

How the results depend on the processing

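The count of 0 of the 7 genes held in the 5 comparisons under DESeq2, 2 other scalings, no filter, no pool term, the replicate block and both TPM scales, and in the 4 without the interaction in fits of only 2 groups. At an adjusted p under 0.05 with no fold limit it was 1 in each sex comparison. That threshold gave 2, 1 and 3 of the 13 other enzymes between the sexes in B6, the sexes in C3 and the females of both strains, and 2, 1, 5, 3 and 1 of the SREBP processing genes in the 5 comparisons, the last the interaction. Of all genes it gave 34.6%, 40%, 32.9%, 34.5% and 2.96% in the same 5 comparisons. Without the pool term the SREBP count was 0 in the 2 comparisons with a call, and DESeq2 called 1 in the interaction. Leave-one-out counts ranged from 0 to 1 for the 7 genes between C3 and B6 females (1 without B6 female replicate 4), 0 to 1 and 0 to 2 for other enzymes between the sexes in B6 and the females of both strains, 1 to 2 for SREBP genes in females of both strains (2, with Scap, without C3 female replicate 2) and 0 to 1 in males (Scap, without B6 male replicate 1).

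The correlations of Srebf2 with Lss and Fdft1 lost their call on log2(TPM + 1) (0.52 and 0.52) and with group alone removed (0.54 and 0.44). Pairs of enzymes with a different ratio rose from 1, 1, 7 and 4 to 4, 9, 11 and 8 with pool means removed. With each liver left out they ranged from 0 to 1, 0 to 3, 0 to 8 and 0 to 4. The cause of the changes with pool and scale was not tested.

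Replicate numbers did not pair the samples: same-numbered livers had a mean correlation of -0.01 to 0.10 across genes after group and pool were removed. With the replicate block, Insig2 was at -0.91 and 0.74 and no call of a listed gene changed. limma on log2(TPM + 0.1) moved the median of all genes by 0.11 and 0.12 in the sex comparisons, where Srebf2 was at 0.33 and 0.46. Over all genes, 869, 945, 1288, 1321 and 55 were called in the 5 comparisons, 421, 482, 815, 881 and 20 without the pool term, and 181 by DESeq2 in the interaction. Of the calls between the sexes, 50.9% in B6 and 59.6% in C3 were higher in females, 64.3% and 70.0% with upper-quartile scaling, and 68.8% and 73.0% or 71.6% and 77.4% with limma on the TPM scales. Depth does not limit these genes, and the spread of 5 livers does.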

Other observations

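Mbtps2, which encodes the second protease of SREBP activation and was chosen after its values were seen, ran against the pathway across livers. Its correlation with the mean of the 7 genes was -0.67 over 20 livers with group and pool removed, rank 13670 of the 13697 other genes tested. Between B6 female replicates 4 and 5 its ratio was 0.798, where the enzymes stood between 2.79 and 3.56.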
